A study of Homo sapiens with 90 samples.

Results

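Hepcidin (HAMP) and 9 genes of its iron, BMP and IL6 inputs were followed in HepG2 cells exposed to imazalil, fenbuconazole or 2,4-D. The 10 genes were HAMP, HFE, TFR2, TFRC, TMPRSS6, ID1, SMAD6, SMAD7, IL6R and STAT3, out of 19774 genes with a probe set of their own. Every probe set that the platform annotation gives to 1 of these symbols alone was taken, which gave 39 of 40914 probe sets. HAMP was chosen by its measured log2 difference between 10 µM imazalil and DMSO, so that difference is described here without a test. The other 9 genes were listed for their place in the pathway, with the values against DMSO already known.

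HepG2 is an established human liver tumour line. The cells came from ATCC and were grown in DMEM with 10% serum in multiwell plates, and exposure began 24 h after plating and lasted 24 h. The treated groups received imazalil (an imidazole fungicide), fenbuconazole (a triazole fungicide) or 2,4-D (a chlorophenoxy herbicide) at 1 of 9 doses that ran from 0.001 to 10 µM, and the controls received DMSO alone, which was present at 0.2% in all groups. Each group held 3 arrays, and the same 3 DMSO arrays served all compounds. All comparisons against DMSO therefore share their controls. The labels do not say that replicates came from separate cultures, so p-values measure only the spread between these samples, which may be technical. The values are log2 signals that the authors normalized within each compound's set of 30 arrays, and a difference of 1 is a factor of 2. Array medians lay between 2.95 and 3.15. The number of arrays limits the precision.

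The cells showed hepatocyte and hepatoma markers, a list that was not made to tell one liver line from another. Albumin (ALB) lay between 12.87 and 13.33, alpha-fetoprotein (AFP) between 12.36 and 12.70, and the lowest of the 8 hepatocyte and hepatoma markers, TTR, between 9.89 and 10.38. The blood cell marker PTPRC lay between 2.28 and 3.07 and the endothelial marker CDH5 between 2.25 and 3.02, close to the array medians. These were the lowest of their lists. Means ran from 2.66 to 3.15 over the macrophage and blood markers and from 2.58 to 3.49 over the endothelial markers. Of the mesenchymal markers, ACTA2 was bright (7.70 to 8.31) and COL1A1 lay above the array medians (3.55 to 4.76), while COL3A1 lay between 2.35 and 3.04. In such bulk samples fewer cells that express a gene and less RNA per cell cannot be told apart.

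Hepcidin is the liver peptide hormone that lowers plasma iron by binding the iron exporter ferroportin and driving its breakdown. Its gene is switched on along a pair of routes. Iron raises BMP ligands, whose receptors phosphorylate SMAD1, SMAD5 and SMAD8 with the help of hemojuvelin, HFE and TFR2, and the protease TMPRSS6 damps this route by cutting hemojuvelin. Inflammation acts through IL6, whose receptor IL6R activates STAT3. Both routes end at the HAMP promoter, where SMADs are known to use an element with the core GGCGCC and STAT3 an element of the form TTCNNNGAA.

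The 250 bases before the start of HAMP are shown because both elements lie in them (RefSeq sequence, build GRCh38.p14, chr19:35282278-35282527, plus strand). Capitals mark the GGCGCC core and the TTCNNNGAA element.

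HAMP: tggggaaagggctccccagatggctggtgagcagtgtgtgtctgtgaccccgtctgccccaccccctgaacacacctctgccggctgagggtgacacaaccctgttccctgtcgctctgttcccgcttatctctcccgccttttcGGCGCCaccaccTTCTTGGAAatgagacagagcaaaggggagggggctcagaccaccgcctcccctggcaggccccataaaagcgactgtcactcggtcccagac

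Counted from the first transcribed base as 1 with no base 0, the core began at -105 and the STAT element at -93. Both motifs read the same on either strand, and they did not overlap in HAMP. Of 35116 promoter windows of this length, 16.4% held GGCGCC, 6.57% held TTCNNNGAA and 0.538% held both. Of the 10 genes, 8 were matched in the promoter table, and SMAD7 had more than one window there. Besides HAMP, TFRC held GGCGCC (at -201), and no other matched window held TTCNNNGAA. The E-box CACGTG, used by USF factors, was in none of these windows and in 6.34% of all windows. A match of letters is a description of the sequence and does not show binding.

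HAMP was measured by 1 probe set (220491_PM_at) and was highest at 10 µM imazalil. Its log2 signal was 9.73, 9.70 and 9.93 with 10 µM imazalil, against 9.20, 9.03 and 9.32 with DMSO in the same set. All 3 exposed arrays lay above all 3 DMSO arrays, where 12.2% of all probe sets had all exposed arrays above or all below. The log2 difference was 0.60 ± 0.10 (SE, n = 3 each), a 1.52-fold higher signal. With 10 µM fenbuconazole the signal was 9.47, 9.42 and 9.59, against 9.16, 9.05 and 9.34 with DMSO, a log2 difference of 0.31 ± 0.11. These groups did not overlap either, where 8.99% of all probe sets had all exposed arrays above or all below. With 10 µM 2,4-D it was 9.49, 9.38 and 9.52, against 9.28, 9.19 and 9.45 with DMSO, a log2 difference of 0.16 ± 0.11, and 1 of the 3 DMSO arrays lay above the lowest exposed array.

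The means of HAMP were compared by dose. From 0.001 to 10 µM, the means with imazalil were 9.36, 9.37, 9.16, 9.20, 9.21, 9.23, 9.26, 9.29 and 9.79. With fenbuconazole they were 9.21, 9.23, 9.07, 9.09, 9.03, 9.10, 9.06, 9.11 and 9.49. With 2,4-D they were 9.28, 9.36, 9.18, 9.20, 9.10, 9.24, 9.28, 9.19 and 9.46. In each compound the 10 µM group had the highest mean of the 9 doses. With imazalil each mean from 0.03 to 3 µM was above that of the dose before it, while the means at 0.001 and 0.003 µM were above all of these. The SD between the 3 arrays of a group lay between 0.04 and 0.25, with a median of 0.12. Relative to the DMSO mean of the same set, the means of the 8 lower doses spanned -0.02 to 0.18 with imazalil, -0.16 to 0.04 with fenbuconazole and -0.21 to 0.06 with 2,4-D.

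**Figure D1:**
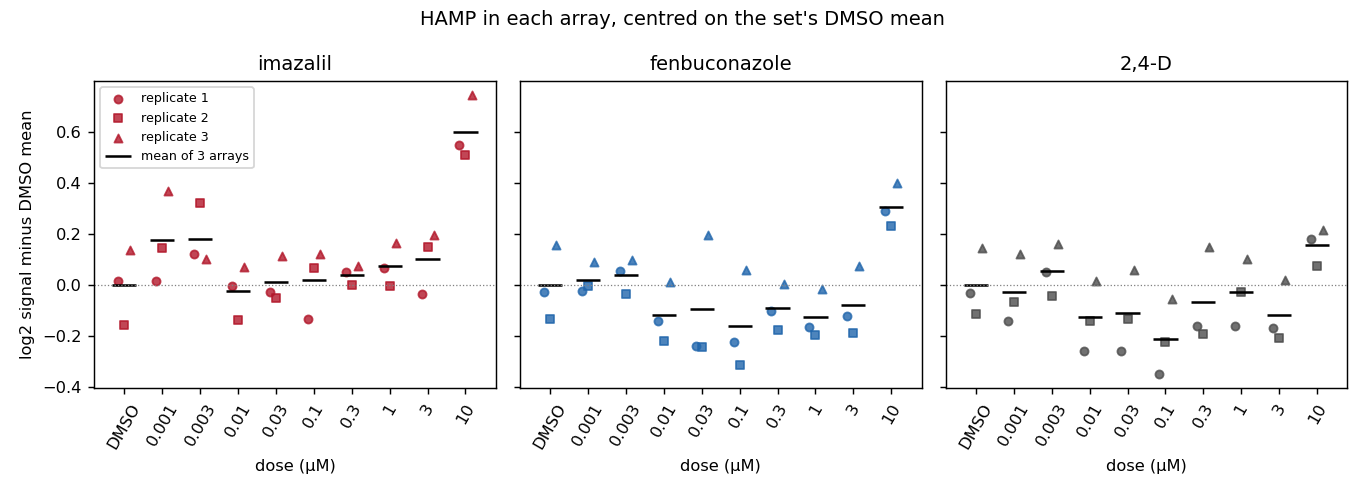
HAMP log2 signal in each array minus the mean of the set's 3 DMSO arrays (y axis) by dose in µM (x axis, DMSO at the left), with 1 panel per compound. Symbols are the 3 replicate numbers and bars are group means. The 10 µM means stand at 0.60 with imazalil, 0.31 with fenbuconazole and 0.16 with 2,4-D, and triangles (replicate 3) are on top in 26 of the 27 treated groups.

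The 27 treated groups were ordered by this DMSO-centred mean. The first step, between 10 µM imazalil (0.60) and 10 µM fenbuconazole (0.31), was 0.29 (SE 0.11) and is given without a test. Fenbuconazole at 10 µM was followed by imazalil at 0.003 µM (0.18) and 0.001 µM (0.18), and then by 2,4-D at 10 µM (0.16). Imazalil at 3 µM (0.10) was next. The second step was 0.125, about the median SD, and the largest later step was 0.05, below it. Set against the spread between single arrays, which includes a shift with the replicate number, neighbours from the third place on were not told apart, and the second step was not tested. The lowest place was held by 2,4-D at 0.1 µM (-0.21).

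Slopes on the treated arrays that did not choose HAMP gave no trend with dose that passed the threshold. Slopes are log2 units per 10-fold dose, tested with limma over all 40914 probe sets. Over imazalil at 0.001 to 3 µM the slope was -0.02 ± 0.02 (SE, 24 arrays, adjusted p = 0.92, and 0.844 to 0.999 over the alternatives). Over the 9 doses of fenbuconazole it was 0.03 ± 0.03 (27 arrays, adjusted p = 0.929, and 0.752 to 1 over the alternatives). For 2,4-D it was 0.02 ± 0.02 (adjusted p = 0.998, and 0.931 to 1 over the alternatives). A straight line in log dose does not describe a difference seen at the top dose alone.

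The top dose was therefore set against the mean of the 8 lower doses of the same compound, a comparison added after the values by dose had been seen, in which DMSO takes no part. With fenbuconazole, HAMP was 0.38 ± 0.08 higher at 10 µM (95% interval 0.21 to 0.56), a 1.30-fold higher signal. It missed the threshold over all probe sets in limma (adjusted p = 0.147, and 0.00531 to 0.922 over the alternatives). It passed with the replicate number as a block (SE 0.06, adjusted p = 0.00531) and with robust moderation (adjusted p = 0.0246). These p-values, and the one with 2,4-D below, are descriptions, since the values by dose had been seen first. The 3 arrays at 10 µM lay between 9.42 and 9.59, above all 24 arrays of the lower doses (8.87 to 9.38, median 9.12). In the fenbuconazole set 0.178% of all probe sets stood apart from the lower doses. With 2,4-D the difference was 0.24 ± 0.08 (95% interval 0.07 to 0.41, adjusted p = 0.871, and 0.192 to 1 over the alternatives), and the 10 µM arrays (9.38 to 9.52) overlapped those of the lower doses (8.96 to 9.47). With imazalil it was 0.53 ± 0.07, with 10 µM arrays at 9.70 to 9.93 above all lower-dose arrays (9.05 to 9.56). In that set 0.408% of all probe sets stood apart from the lower doses. The HAMP difference with imazalil is a description, because the 10 µM arrays chose the gene.

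Between compounds at 10 µM, after centring on DMSO, HAMP was 0.29 ± 0.11 higher with imazalil than with fenbuconazole and 0.44 ± 0.10 higher with imazalil than with 2,4-D, both given without a test. Between fenbuconazole and 2,4-D the difference was 0.15 ± 0.11 (95% interval -0.08 to 0.37, limma adjusted p = 0.87, and 0.642 to 0.987 over the alternatives).

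HAMP also moved with the replicate number. Replicate 3 was the highest of the 3 arrays in 26 of 27 treated groups, and also among the DMSO arrays. Its deviation from the group mean averaged 0.12, against -0.06 for replicate 1 and -0.06 for replicate 2. The mean interquartile range of the arrays was 3.06, 3.00 and 3.01 for replicates 1, 2 and 3. Every group held 1 array of each number, so the number is balanced over doses. The sample descriptions carry a code, P1 to P3, that equals the number and whose meaning the labels do not state. With the number as a block, the SE of the HAMP difference between 10 µM and the lower doses was 0.06 with fenbuconazole, 0.05 with 2,4-D and 0.06 with imazalil, against 0.08, 0.08 and 0.07 without the block.

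Counts over the 39 probe sets were set beside the shares over all probe sets. In the comparison of 10 µM imazalil with DMSO 0 of the 38 probe sets other than that of HAMP passed an adjusted p of 0.05, where 0.0464% of all probe sets passed. With fenbuconazole 0 of 39 passed (0.00978% of all) and with 2,4-D 0 of 39 (0% of all). Since the list was drawn up with these values known, nothing is read from these counts. At an unadjusted p under 0.05 the counts were 2 of 38 with imazalil, 2 of 39 with fenbuconazole and 3 of 39 with 2,4-D, where 5.44%, 4.40% and 4.07% of all probe sets lay under it in that order. The median log2 difference of the members was 0.001, 0.03 and 0.01 in the same order, and that of all probe sets was -0.002, -0.002 and -0.0001. Over the 8 lower doses of the 3 compounds, 0 of 936 member values passed in limma and 36 had an unadjusted p under 0.05. Of all probe sets, 0% to 0.00244% passed at these doses and 2.46% to 5.87% had an unadjusted p under 0.05.

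**Figure D2:**
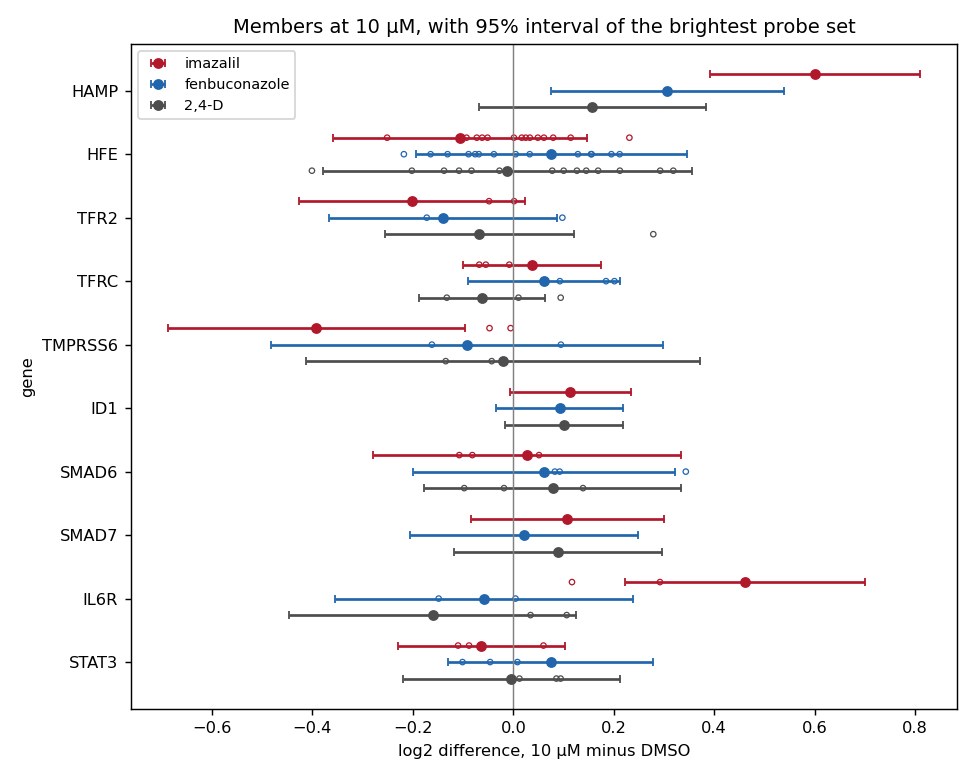
Log2 difference at 10 µM minus DMSO (x axis) for each of the 10 genes (y axis) with imazalil, fenbuconazole and 2,4-D. Filled points with bars are the probe set with the highest mean signal and its 95% interval from the limma fit, and open points are the other probe sets of the gene. HAMP (0.60) and IL6R (0.46) with imazalil lie farthest to the right.

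The iron sensors were unevenly measured. TFRC, transferrin receptor 1, through which cells take up iron and which is known to bind HFE, was bright and steady. Its probe set 208691_PM_at read 11.83, 11.83 and 11.94 with 10 µM imazalil, against 11.84, 11.85 and 11.80 with DMSO, a log2 difference of 0.04 ± 0.07. With 10 µM fenbuconazole the difference was 0.06 ± 0.07, and with 10 µM 2,4-D it was -0.06 ± 0.06. At all lower doses this probe set stayed between -0.05 and 0.07 of DMSO. The other bright probe set, 207332_PM_s_at, ranged from 11.23 to 11.73 over all arrays. A dimmer one, 237215_PM_s_at, had a slope of -0.07 ± 0.02 with 2,4-D (limma adjusted p = 0.998), and 240686_PM_x_at was near the array medians (mean 3.18).

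TFR2, transferrin receptor 2, senses iron-loaded transferrin at the hepatocyte surface. Probe set 210215_PM_at read 6.63, 6.54 and 6.16 with 10 µM imazalil, against 6.73, 6.67 and 6.54 with DMSO, a log2 difference of -0.20 ± 0.11. The groups overlapped, with 1 DMSO array below 2 of the exposed arrays. With fenbuconazole it read 6.58, 6.50 and 6.39, against 6.68, 6.58 and 6.63 with DMSO (-0.14 ± 0.11). These groups did not overlap, although the closest arrays were nearly equal, and 8.99% of all probe sets did not overlap. With 2,4-D the difference was -0.07 ± 0.09. Its slope was -0.05 ± 0.02 over all doses of imazalil (limma adjusted p = 0.693) and -0.05 ± 0.03 over 0.001 to 3 µM (adjusted p = 0.794). The other probe sets of TFR2, 207883_PM_s_at and 215863_PM_at, averaged 3.49 and 2.54, near or below the array medians.

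HFE, which signals together with TFR2 and is mutated in the common form of hereditary haemochromatosis, had 15 probe sets, many of them made to share sequence with one another or with other transcripts. Their means lay between 2.88 and 4.10, so all were dim. At 10 µM their log2 differences from DMSO ran from -0.25 to 0.23 with imazalil (9 above 0 and 6 below), from -0.22 to 0.21 with fenbuconazole (8 above, 7 below) and from -0.40 to 0.32 with 2,4-D (8 above, 7 below). The medians were 0.02, 0.005 and 0.08 in that order. Probe sets of this gene thus gave both signs with each compound.

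TMPRSS6, the membrane protease that holds hepcidin down, was also dim. Its brightest probe set, 214955_PM_at, read 3.11, 3.02 and 3.24 with 10 µM imazalil, against 3.51, 3.77 and 3.26 with DMSO, a log2 difference of -0.39 ± 0.14. All 3 exposed arrays lay below the DMSO arrays, by little in the closest pair, where 12.2% of all probe sets had all above or all below. With fenbuconazole the difference was -0.09 ± 0.19 and with 2,4-D it was -0.02 ± 0.19. Against the 8 lower imazalil doses it was -0.24 ± 0.10 (limma adjusted p = 0.542). The other probe sets, 232941_PM_at and 234367_PM_x_at, differed from DMSO by -0.01 ± 0.14 and -0.05 ± 0.14 at 10 µM imazalil. The means of the 3 probe sets over all arrays lay between 2.73 and 3.42.

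The BMP-SMAD readouts moved by small amounts. ID1, a transcriptional inhibitor that BMP signalling is known to switch on directly, was bright (probe set 208937_PM_s_at, 11.73 to 12.05 over all arrays). It read 11.92, 11.97 and 11.96 with 10 µM imazalil, against 11.80, 11.84 and 11.86 with DMSO, a log2 difference of 0.11 ± 0.06. With 10 µM fenbuconazole it read 11.92, 11.92 and 11.98, against 11.84, 11.83 and 11.87 with DMSO (0.09 ± 0.06). With 10 µM 2,4-D it read 11.94, 12.05 and 12.01, against 11.89, 11.90 and 11.91 with DMSO (0.10 ± 0.06). In each set the exposed arrays lay above the DMSO arrays, which are the same 3 arrays. Of all probe sets, 12.2%, 8.99% and 7.03% had all exposed arrays above or all below DMSO in that order.

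Without DMSO, ID1 at 10 µM exceeded the mean of the 8 lower doses by 0.08 ± 0.05 with imazalil (95% interval -0.01 to 0.17, limma adjusted p = 0.647), by 0.10 ± 0.05 with fenbuconazole (0.0004 to 0.20, adjusted p = 0.811) and by 0.09 ± 0.04 with 2,4-D (-0.002 to 0.18, adjusted p = 0.931). None of these passed the threshold. The fenbuconazole arrays at 10 µM (11.92 to 11.98) lay above all 24 lower-dose arrays of the set (11.73 to 11.91), as 0.178% of all probe sets stood apart. Those of imazalil and 2,4-D overlapped the lower doses. Between compounds ID1 differed by 0.02 or less at 10 µM, and the 95% intervals ran from -0.11 to 0.12.

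**Figure D3:**
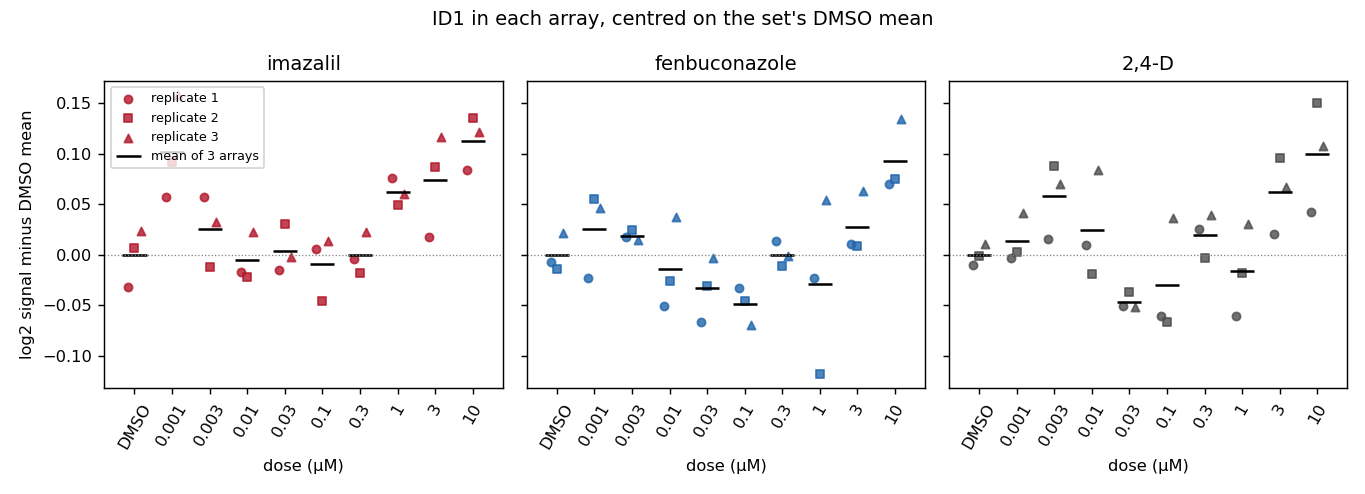
ID1 log2 signal in each array minus the mean of the set's 3 DMSO arrays (y axis) by dose in µM (x axis, DMSO at the left), with 1 panel per compound, symbols for the replicate numbers and bars for group means. The 10 µM means stand at 0.11 with imazalil, 0.09 with fenbuconazole and 0.10 with 2,4-D, on a scale much finer than that of HAMP.

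SMAD7, an inhibitory SMAD that BMP and TGF-beta signalling induce as feedback, had 1 probe set, 204790_PM_at. It read 7.83, 7.85 and 7.97 with 10 µM imazalil, against 7.86, 7.62 and 7.85 with DMSO, a log2 difference of 0.11 ± 0.09. The differences were 0.02 ± 0.11 with fenbuconazole and 0.09 ± 0.10 with 2,4-D, and exposed and DMSO arrays overlapped in every set. SMAD6, the other inhibitory SMAD, was dim in all 4 probe sets, with means from 2.68 to 4.76. The brightest, 207069_PM_s_at, differed from DMSO by 0.03 ± 0.15, 0.06 ± 0.13 and 0.08 ± 0.12 at 10 µM imazalil, fenbuconazole and 2,4-D. It had a slope of 0.07 ± 0.02 over the 9 doses of fenbuconazole (limma adjusted p = 0.569). Another, 209886_PM_s_at, was 0.34 ± 0.15 above DMSO at 10 µM fenbuconazole, with arrays at 3.07, 3.48 and 3.41, against 3.03, 2.96 and 2.94 with DMSO, near the array medians.

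In the IL6 arm, the brightest IL6R probe set differed between imazalil and 2,4-D at 10 µM, a call lost without any 1 replicate number. IL6R encodes the ligand-binding chain of the IL6 receptor. Its brightest probe set, 226333_PM_at, read 6.14, 6.35 and 6.53 with 10 µM imazalil, against 5.83, 5.76 and 6.05 with DMSO, a log2 difference of 0.46 ± 0.12 and a 1.38-fold higher signal. The exposed arrays all lay above the DMSO arrays, where 12.2% of all probe sets had all above or all below. With 10 µM fenbuconazole it read 5.75, 5.72 and 5.54, against 5.67, 5.53 and 5.99 with DMSO (-0.06 ± 0.14). With 10 µM 2,4-D it read 5.74, 5.81 and 5.94, against 5.91, 5.86 and 6.20 with DMSO (-0.16 ± 0.14). In both of these sets exposed and DMSO arrays overlapped.

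DMSO-centred IL6R at 10 µM was 0.62 ± 0.13 higher with imazalil than with 2,4-D (95% interval 0.36 to 0.88, 1.54-fold). Over all probe sets in limma the adjusted p was 0.0275, and 0.00609 to 0.558 over the alternatives. The values against DMSO that enter it were known when IL6R was listed, so this p is a description. All 3 centred imazalil arrays were above all 3 centred 2,4-D arrays, but the share of all probe sets that separate so was not computed. This IL6R probe set was the only one of the 38 other than that of HAMP to pass in this comparison, where 0.12% of all probe sets passed. The call was lost when any 1 replicate number was left out. The difference was then 0.69 without replicate 1 (adjusted p = 0.115), 0.61 without replicate 2 (adjusted p = 0.558) and 0.56 without replicate 3 (adjusted p = 0.30). Against fenbuconazole IL6R was 0.52 ± 0.13 higher with imazalil (95% interval 0.26 to 0.78) and did not pass (adjusted p = 0.257, and 0.0109 to 0.824 over the alternatives), and the difference was 0.31 without replicate 3. In that comparison 0 of 38 members passed (0.0171% of all) and 2 had an unadjusted p under 0.05, as did 9.19% of all probe sets. Between fenbuconazole and 2,4-D 0 of 39 passed (0.044% of all) and 1 had an unadjusted p under 0.05, as did 6.47% of all. At the 8 lower doses 0 members passed in any of the 24 comparisons between compounds, with 0 to 6 of 39 under an unadjusted p of 0.05, while 0% to 0.00978% of all probe sets passed and 3.31% to 16.2% were under that unadjusted p.

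No trend of IL6R passed the threshold below the top dose of imazalil. From 0.001 to 10 µM imazalil its means were 5.83, 5.84, 5.72, 5.88, 5.79, 5.81, 5.93, 5.91 and 6.34. The slope over 0.001 to 3 µM was 0.03 ± 0.02 (limma adjusted p = 0.883), and over all 9 doses it was 0.09 ± 0.03 (adjusted p = 0.382). The 10 µM arrays lay between 6.14 and 6.53, above the 24 arrays of the lower doses (5.52 to 6.10, median 5.86). In the imazalil set 0.408% of all probe sets stood apart from the lower doses. The comparison with the mean of the 8 lower doses was added after the values had been seen. The IL6R difference was 0.50 ± 0.09 (95% interval 0.32 to 0.68, limma adjusted p = 0.0102, and 0.00418 to 0.583 over the alternatives). Since the 10 µM values against DMSO were known when IL6R was listed, this p is a description. In that comparison 0.13% of all probe sets passed. The IL6R difference was 0.58, 0.50 and 0.42 without replicates 1, 2 and 3, each above an adjusted p of 0.05 (0.0871, 0.364 and 0.583). Unlike HAMP, IL6R was highest in replicate 3 in 10 of 27 treated groups, in replicate 2 in 11 and in replicate 1 in 6.

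**Figure D4:**
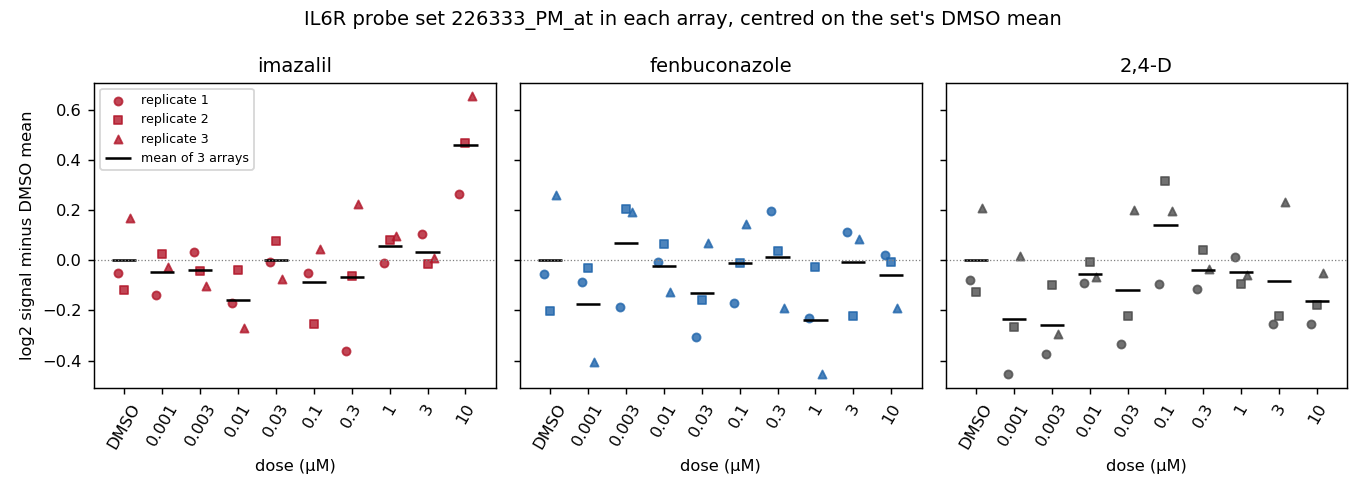
Log2 signal of IL6R probe set 226333_PM_at in each array minus the mean of the set's 3 DMSO arrays (y axis) by dose in µM (x axis, DMSO at the left), with 1 panel per compound, symbols for the replicate numbers and bars for group means. The 10 µM mean stands at 0.46 with imazalil, -0.06 with fenbuconazole and -0.16 with 2,4-D.

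The other IL6R probe sets lay near the array medians. At 10 µM imazalil, 205945_PM_at read 3.63, 3.52 and 4.12, against 3.39, 3.57 and 3.42 with DMSO (0.29 ± 0.16), and 217489_PM_s_at read 2.89, 2.83 and 2.65, against 2.67, 2.66 and 2.68 with DMSO (0.12 ± 0.13). Both overlapped DMSO. STAT3, the transcription factor that carries the IL6 signal to the HAMP promoter, was measured at several levels. Its brightest probe set, 208992_PM_s_at, read 9.25, 9.14 and 9.20 with 10 µM imazalil, against 9.25, 9.27 and 9.26 with DMSO, a log2 difference of -0.06 ± 0.08. The exposed arrays lay below the DMSO arrays, the closest pair nearly equal, where 12.2% of all probe sets had all above or all below. The difference was 0.07 ± 0.10 with fenbuconazole and -0.004 ± 0.11 with 2,4-D. Probe set 208991_PM_at gave -0.11 ± 0.09, -0.10 ± 0.08 and 0.01 ± 0.11 with imazalil, fenbuconazole and 2,4-D. Array signals report STAT3 RNA and not its phosphorylation.

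No dose slope of a member passed the threshold, although the 95% intervals of some, such as those of IL6R with imazalil and SMAD6 with fenbuconazole above, lay off 0. With imazalil 0 of the 38 probe sets other than that of HAMP passed (0.0318% of all probe sets in limma) and 5 had an unadjusted p under 0.05, as did 6.44% of all. Over imazalil at 0.001 to 3 µM 0 of 39 passed (0.00489% of all) and 4 had an unadjusted p under 0.05 (10.3%, against 6.28% of all). With fenbuconazole 0 of 39 passed (0.00978% of all) and 4 had an unadjusted p under 0.05 (10.3%, against 6.07% of all). With 2,4-D 0 of 39 passed (0% of all) and 1 had an unadjusted p under 0.05 (2.56%, against 4.82% of all). In the comparison of the top dose with the lower doses 0 of 39 passed with fenbuconazole (0.0538% of all) and 0 of 39 with 2,4-D (0% of all), with 3 (7.69%, against 6.14% of all) and 6 (15.4%, against 5.36% of all) under an unadjusted p of 0.05.

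The separation of single arrays is given as a description, since HAMP was chosen on these arrays and the values of the other members against DMSO were known. At 10 µM imazalil 5 of 39 member probe sets had all exposed arrays above or all below the DMSO arrays, where 12.2% of all probe sets did. With fenbuconazole 8 of 39 did (8.99% of all) and with 2,4-D 5 of 39 (7.03% of all). Set against the 24 arrays of the lower doses, HAMP and IL6R stood apart with imazalil (0.408% of all probe sets did) and HAMP and ID1 with fenbuconazole (0.178% of all). With 2,4-D 0 members did (0.088% of all).

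Genes around hepcidin were taken from 9 lists with 84 entries, of which 75 genes had 189 probe sets here. At 10 µM, 0 of the 189 passed upward and 0 downward with imazalil, fenbuconazole or 2,4-D in limma, and 17, 5 and 11 had an unadjusted p under 0.05. As shares these were 8.99%, 2.65% and 5.82%, where 5.44%, 4.40% and 4.07% of all probe sets lay under it. With 1 probe set per gene, 46, 42 and 42 of 75 genes lay above DMSO in that order, with median log2 differences of 0.03, 0.01 and 0.02, where the medians over all genes were -0.004, -0.0009 and 0.0008.

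With 10 µM imazalil the highest were SMAD4, the partner of all receptor-activated SMADs (0.48 ± 0.17), SAA4, an apolipoprotein of the serum amyloid family (0.33 ± 0.15), and CREB3L3, a hepatocyte transcription factor of the endoplasmic reticulum (0.295 ± 0.14). The lowest were FST, an antagonist of activins (-0.32 ± 0.09), INHBB, the activin B subunit (-0.30 ± 0.15), and CP, the ferroxidase ceruloplasmin (-0.23 ± 0.10). None passed, with the lowest adjusted p among these 6 at 0.602 for FST. With 10 µM fenbuconazole the highest were SOCS3, the feedback inhibitor of IL6 signalling (0.33 ± 0.14), SAA4 (0.27 ± 0.13) and CRP, the acute phase C-reactive protein (0.20 ± 0.14). The lowest were ACVR2A, an activin and BMP receptor (-0.20 ± 0.09), ID4 (-0.19 ± 0.19) and the fibrinogen chain FGA (-0.18 ± 0.08).

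With 10 µM 2,4-D the highest were NEO1, the hemojuvelin-binding receptor neogenin (0.28 ± 0.12), SMAD9, which encodes SMAD8 (0.22 ± 0.10), and FURIN, a protease that cuts prohepcidin (0.21 ± 0.11). The lowest were the BMP antagonist NOG (-0.23 ± 0.10), ACVR2A (-0.16 ± 0.07) and ERFE, the erythroid hormone that binds BMP ligands (-0.14 ± 0.12). By list, the 4 other BMP-SMAD target genes had medians of 0.06 with imazalil, -0.10 with fenbuconazole and 0.02 with 2,4-D. The 12 acute phase genes measured had medians of 0.05, 0.002 and -0.02, and the 8 genes of the IL6 arm 0.08, 0.03 and 0.02, in the same order.

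**Figure D5:**
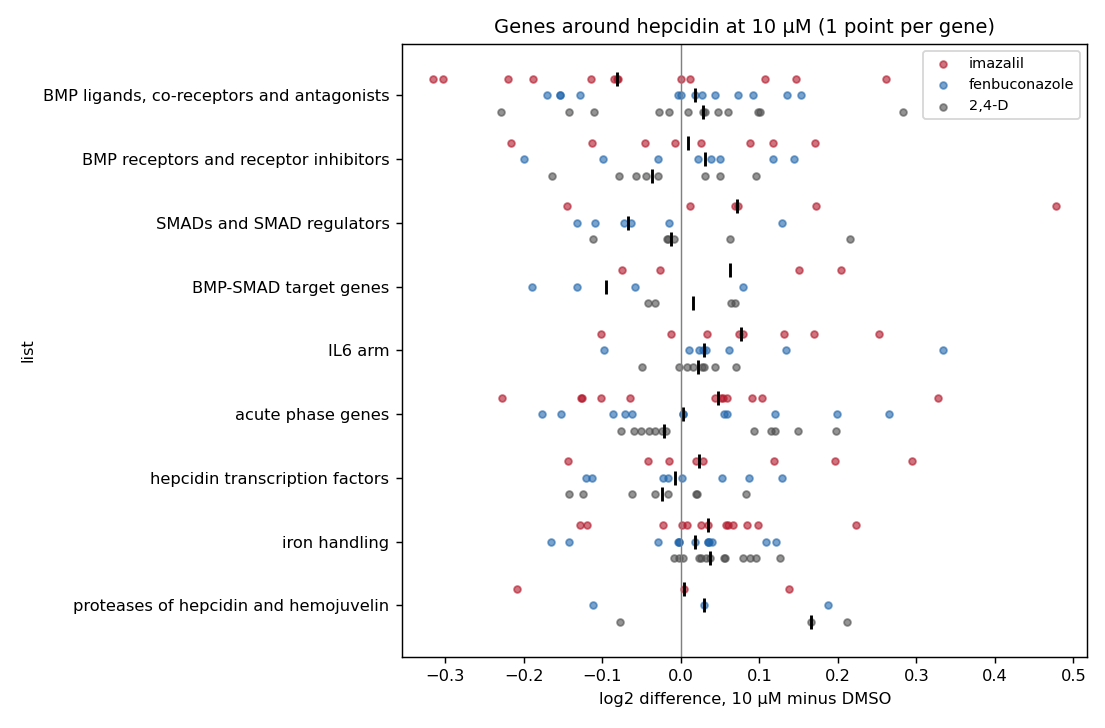
Log2 difference at 10 µM minus DMSO (x axis) of genes around hepcidin, 1 point per gene, by list (y axis) and compound. Black ticks are list medians. Points lie on both sides of 0 in every list with each compound, and the gene farthest from 0 is SMAD4 with imazalil (0.48).

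The genes whose pattern was most like that of HAMP were found from the DMSO-centred means of the 27 treated groups, over 8570 genes with a mean log2 signal of 5 or more. The correlations are descriptions, and their points share DMSO arrays and normalization. PRIMA1, which anchors acetylcholinesterase to membranes, had Pearson r = 0.90 (0.83 over the 26 groups without 10 µM imazalil), KLB, the co-receptor of the hormones FGF19 and FGF21, 0.87 (0.84), SULT2A1, which sulfates steroids and bile acids, 0.83 (0.69), DUSP9, a phosphatase of MAP kinases, 0.83 (0.68), and AKR1C2, a steroid-reducing enzyme, 0.825 (0.88). At 10 µM imazalil PRIMA1 lay 0.57 above DMSO and SULT2A1 0.47. Of the other members that were bright enough, ID1 was the most like HAMP, with r = 0.77 over 27 groups and 0.75 over 26, in place 16. SMAD7 followed at 0.49 (0.37) and IL6R at 0.47 (-0.07), so the likeness of IL6R rested on the 10 µM imazalil group.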

How the data were processed

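Signals were measured in 84 HepG2 arrays, given as 90 columns because the copies of the 3 DMSO arrays appear in each compound's set. The deposited log2 values were made by the authors, who normalized by RMA within each set, per the labels. The versions, the genome build and the annotation used by the authors are not given in the sources used here. Compounds were compared as differences from the DMSO mean of their set, since normalization within a set can shift levels between sets.

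Of 54715 probe sets, 102 controls, 864 with several symbols and 12835 with none were left out, and 40914 were tested with limma 3.58.1 in R 4.3.3 (lmFit and eBayes, 1 mean per group, two-sided, Benjamini-Hochberg within each contrast, threshold 0.05, 95% intervals). Symbols were those of the platform annotation, and 40858 probe sets were matched to RefSeq by Entrez identifier. Slopes used log10 dose over treated columns alone, and differences between compounds used DMSO-centred columns. The fits were tested on simulated data. Members, lists and tests were chosen with earlier results of these data known. Named genes are the members, the list genes past the threshold or otherwise the 3 highest and 3 lowest at 10 µM, and the 5 most like HAMP. Alternatives were other sets of probe sets, a filter on dim ones, robust moderation, a replicate block, joint quantile normalization, array spread as a covariate and left-out arrays.

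Same-numbered arrays at 10 µM and DMSO had deviations from their group means that correlated at 0.40, 0.30 and 0.17 in the 2,4-D set, so by this check the numbers pair the samples there. In the fenbuconazole set the values were 0.38, 0.20 and 0.08 and in the imazalil set -0.13, 0.08 and 0.14. In those sets the numbers were not taken as pairs. The main fits had no block in any set, so those of 2,4-D leave its pairing out, and the block is an alternative. Between treated groups of the 2,4-D set, same-numbered arrays correlated at 0.05 on average. The labels give the same code for each number in all sets without saying what it means.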

Additional observations from a re-analysis of the deposited data

Results flagged for a closer look

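IL6R probe set 226333_PM_at was picked out because its response at 10 µM differed between imazalil and 2,4-D. The DMSO-centred difference was 0.62 ± 0.13 (log2, SE, limma adjusted p = 0.0275). This p is a description, since the values against DMSO were known when IL6R was listed. At 10 µM imazalil 3 of 3 arrays lay above DMSO, where 12.2% of all probe sets had all arrays above or all below. Without replicate 1, 2 or 3 the adjusted p was 0.115, 0.558 or 0.30, and the difference between imazalil and fenbuconazole did not pass (adjusted p = 0.257). The difference of 10 µM imazalil from DMSO (0.46) did not pass in limma either (adjusted p = 0.359), nor in any alternative. Groups of 3 arrays were not searched for single arrays that stand apart.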

How the results depend on the processing

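Of the alternative values, 328 kept their direction and their side of the threshold, or moved by less than the SD between arrays, while 13 moved further, 6 lost the threshold, 3 gained it and 0 turned direction. Differences given without a test were compared by size alone. The HAMP difference at 10 µM imazalil stayed between 0.52 and 0.67. As a description, since HAMP was chosen by that difference, the count of members past the threshold was 1 (HAMP), and 0 with only both groups in the fit, without replicate 1, 2 or 3, without DMSO replicate 1 or 2, and without imazalil 10 µM replicate 3. These fits hold fewer arrays. Between imazalil and 2,4-D the count of 1 became 0 without replicate 1, 2 or 3. Between imazalil and fenbuconazole it was 0, and 1 (IL6R, 0.64) after joint quantile normalization, for which the cause was not tested. HAMP at 10 µM fenbuconazole against its lower doses kept its value of 0.38 but passed with robust moderation (adjusted p = 0.0246) and with the replicate block (adjusted p = 0.00531), the cause of which was not tested. Both p-values are descriptions, since that comparison was added after the values had been seen. With the replicate block the HAMP slopes were -0.02 for imazalil to 3 µM, 0.03 for fenbuconazole and 0.02 for 2,4-D, and the HAMP difference at 10 µM imazalil stayed 0.60. The block changed no other call among the tested results. Over all probe sets, the count that passed between imazalil and 2,4-D was 74 with the block and 49 without it. After joint normalization it was 289. Between imazalil and fenbuconazole 120 passed after joint normalization and 7 otherwise, and between fenbuconazole and 2,4-D 172 and 18. At 10 µM imazalil 19 passed, 36 with robust moderation and 4 without any 1 replicate number. The 10 µM arrays correlated best with the DMSO array of their own number in 3 of 3 cases for 2,4-D, 2 of 3 for fenbuconazole and 1 of 3 for imazalil. Of the 39 member probe sets, 26 had means under 4. Small changes may go unseen there with 3 arrays per group, which was not tested.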
